A study of Mus musculus with 6 samples.

Results

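The CC chemokine ligands are small secreted proteins named for a pair of adjacent cysteines, and 10 of them were followed here: Ccl2, Ccl3, Ccl4, Ccl5, Ccl6, Ccl7, Ccl9, Ccl12, Ccl17 and Ccl22. They were picked by symbol as inflammatory and constitutive members of the family and make up 10 of the 23398 genes with deposited values. The cells were mouse dendritic cells grown from bone marrow, and RNA sequencing gave 6 libraries. In 3 libraries the cells had been exposed to calcium hydroxide nanoparticles, Ca(OH)2, for 12 hours, and in 3 they had received vehicle for the same time. No strain, sex, age, particle dose, vehicle or growth factor for deriving the cells is named in the labels. They also do not say whether replicates came from separate mice or cultures, so the p-values measure the spread between these libraries, which may be technical.

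CC chemokines bind G protein-coupled receptors on leukocytes and direct the cells along a gradient. Immature dendritic cells and macrophages release inflammatory CC ligands that draw in monocytes, granulocytes and effector T cells. Maturing dendritic cells also release Ccl17 and Ccl22, ligands of Ccr4, which is found on skin-homing, type 2 helper and regulatory T cells. Ccl6 and Ccl9 are rodent ligands of Ccr1 that myeloid cells make without stimulation.

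Values are FPKM, fragments per kilobase of exon with 1 scale per library, a per-length scale on which genes can be compared. The unit was inferred from the values. A change is the difference in log2(FPKM + 1), nanoparticle minus vehicle, tested with limma over the 10682 genes that reached 1 FPKM in 3 or more libraries. A gene is said to rise or fall where the adjusted p of Benjamini and Hochberg was under 0.05. All 10 ligands passed this filter, each with more than 1 FPKM in all 6 libraries. Recovered totals were 17281420 to 18218175 reads in the vehicle and 17790491 to 21976655 reads in the nanoparticle libraries. The deposited values were not scaled by these totals. On an exon length of 1 kb, 1 read counted as 0.0479 to 0.0504 FPKM in vehicle and 0.0519 to 0.0612 FPKM with nanoparticles. Folds and sums of FPKM between groups include this difference. Scaling libraries by the totals instead moved the median change of all tested genes from -0.0010 to -0.28. Nanoparticle library 1 stood apart from libraries 2 and 3 of its group over many genes, and the calls of the ligands and of the gene lists are also given without it where they change. In RNA from whole cultures, a change in the number of cells of a type and a change in RNA per cell cannot be told apart.

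Of the 10 ligands, 7 rose with nanoparticles (Ccl2, Ccl3, Ccl4, Ccl5, Ccl7, Ccl9 and Ccl22), 0 fell, and 3 did not pass the test (Ccl6, Ccl12 and Ccl17). Among all tested genes, 17.0% rose and 16.2% fell. The median change of the 10 ligands was 1.09, against -0.0010 for all tested genes. The groups did not overlap in the same 7 ligands, with every nanoparticle library above every vehicle library, and this separation upwards was seen in 25.9% of all tested genes. Without nanoparticle library 1, the count of ligands that rose was 9 of 10, with Ccl6 and Ccl17 added, against 34.3% of all tested genes. This fit used the deposited scale, and the change of Ccl6 in it was small, at 0.29.

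**Figure D1:**
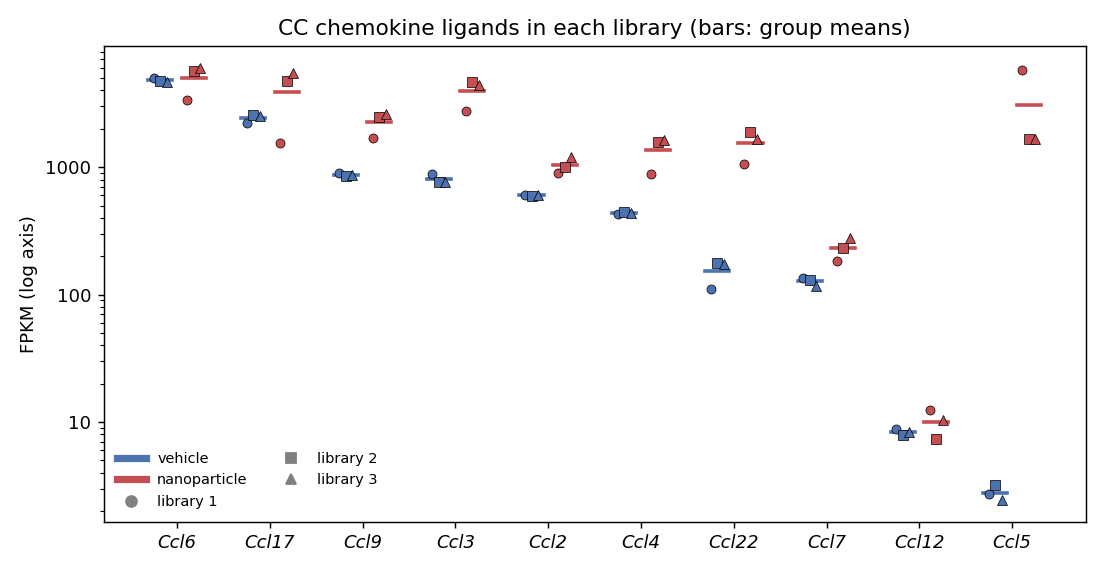
FPKM of the 10 CC chemokine ligands on a log axis, ordered by their vehicle mean, with 1 point per library (shape gives the library number, colour the group) and a bar at each group mean. Ccl5 went from the lowest of the ligands, at 2.44 to 3.21 FPKM in vehicle, to 1665 to 5815 FPKM with nanoparticles, and Ccl6 and Ccl17 in nanoparticle library 1 lie below the vehicle points.

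Ccl5, Ccl3 and Ccl4 attract monocytes and effector T cells, Ccl3 and Ccl5 in part through Ccr1. All are coded on chromosome 11 of GRCm38. Ccl5 (ENSMUSG00000035042, chr11:83525778-83530518, minus strand) was at 2.72, 3.21 and 2.44 FPKM in vehicle libraries 1 to 3 and at 5815, 1665 and 1665 FPKM in nanoparticle libraries 1 to 3. The vehicle values rest on 52, 61 and 49 reads and the nanoparticle values on 91155, 26455 and 30799 reads. Thus Ccl5 was a low transcript in every vehicle library and an abundant one in every nanoparticle library, and even the lowest nanoparticle value was 519-fold above the highest vehicle value. The fitted change was 9.39 (SE 0.49, limma adjusted p = 9.80e-05), and 0 of the tested genes had a larger one on the log2(FPKM + 1) scale. With a pseudocount of 0.1, which shrinks low values less, the change of Ccl5 was 9.78 and 2 genes had a larger one.

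Ccl3, the inflammatory protein MIP-1 alpha (ENSMUSG00000000982, chr11:83647844-83649355, minus strand), was at 877, 768 and 767 FPKM in vehicle and 2781, 4661 and 4379 FPKM in nanoparticle libraries. This was a 4.90-fold difference of means, and nanoparticle library 1 was the lowest of its group (change 2.26, SE 0.24, limma adjusted p = 0.00102). Ccl4, MIP-1 beta (ENSMUSG00000018930, chr11:83662584-83664683, plus strand), was at 432, 443 and 435 FPKM in vehicle and 884, 1562 and 1630 FPKM in nanoparticle libraries. Its means differed 3.11-fold (change 1.58, SE 0.26, limma adjusted p = 0.00495), again with nanoparticle library 1 the lowest of its group. The genes lie on opposite strands with their starts 13.2 kb apart, and both were already well expressed in vehicle cells, unlike Ccl5.

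Ccl2, Ccl7 and Ccl12 are the monocyte chemoattractants, ligands of Ccr2, and form a second block on chromosome 11. Ccl2, also called MCP-1 (ENSMUSG00000035385, chr11:82035571-82037453, plus strand), was at 604, 596 and 604 FPKM in vehicle and 898, 1011 and 1207 FPKM in nanoparticle libraries, a 1.73-fold difference of means. Its change was 0.78 (SE 0.16, limma adjusted p = 0.0126). Ccl7, MCP-3 (ENSMUSG00000035373, chr11:82045712-82047525, plus strand), was at 135, 131 and 117 FPKM in vehicle and 185, 231 and 276 FPKM in nanoparticle libraries, with a change of 0.83 (SE 0.17, limma adjusted p = 0.0126). Both were higher in 3 of 3 nanoparticle libraries, and both increases were small beside those of Ccl3 and Ccl4. The Ccl2 call did not hold when any vehicle library was left out (limma adjusted p = 0.0649 to 0.0709), nor did that of Ccl7 without vehicle library 2 or 3 (0.0545 and 0.0664).

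The Ccl2 call was also lost with libraries scaled by total recovered reads (limma adjusted p = 0.0558), to an equal sum of FPKM (0.0714) or with no filter on low values (0.0673). Under the scaling by total reads the change of Ccl2 was 0.43, with the median of all tested genes at -0.28. Ccl2 overlaps the gene Gm17268 on the opposite strand, for which no value was used here, and the labels do not say whether reads were counted by strand.

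Ccl12, MCP-5 (ENSMUSG00000035352, chr11:82101845-82103400, plus strand), was far lower than Ccl2 and Ccl7. It was at 8.88, 7.98 and 8.38 FPKM in vehicle and 12.4, 7.31 and 10.4 FPKM in nanoparticle libraries, on 65 to 109 reads per library. The groups overlapped, and the change of 0.21 (95% interval -0.24 to 0.65) did not pass the test (limma adjusted p = 0.439). With scaling by total reads its sign was the opposite, at -0.11, also without passing.

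Ccl22 and Ccl17, the ligands of Ccr4, are neighbours on chromosome 8, 58.8 kb apart and read in the same direction, and differed in their response. Ccl22 (ENSMUSG00000031779, chr8:94745590-94751699) was at 110, 178 and 173 FPKM in vehicle and 1052, 1876 and 1677 FPKM in nanoparticle libraries. This was a 9.98-fold difference of means with a wide gap between the groups (change 3.30, SE 0.29, limma adjusted p = 5.18e-04). Ccl17 (ENSMUSG00000031780, chr8:94810453-94812036) was at 2235, 2579 and 2523 FPKM in vehicle and 1560, 4707 and 5503 FPKM in nanoparticle libraries. Nanoparticle library 1 lay below every vehicle library, and libraries 2 and 3 lay above every one of them. The change of Ccl17 was 0.49 (SE 0.49, 95% interval -0.68 to 1.67) and did not pass the test (limma adjusted p = 0.485). Without nanoparticle library 1 it was 1.06 and passed (limma adjusted p = 1.45e-04).

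Ccl9 and Ccl6 are neighbours on chromosome 11, separated by 9.25 kb. Ccl9 (ENSMUSG00000019122, chr11:83572919-83578636, minus strand) was at 897, 859 and 865 FPKM in vehicle and 1703, 2471 and 2631 FPKM in nanoparticle libraries. Its means differed 2.60-fold and every nanoparticle library exceeded every vehicle library (change 1.35, SE 0.21, limma adjusted p = 0.00417). Ccl6 (ENSMUSG00000018927, chr11:83587882-83593087, minus strand) was the most abundant ligand in vehicle, at 4974, 4744 and 4689 FPKM, and was at 3379, 5722 and 6047 FPKM in nanoparticle libraries. As for Ccl17, nanoparticle library 1 lay below the vehicle range and libraries 2 and 3 lay above it. The change of Ccl6 was 0.03 (SE 0.28, 95% interval -0.65 to 0.70, limma adjusted p = 0.951), and without nanoparticle library 1 it was 0.29 (limma adjusted p = 0.00573). With scaling by total reads the change over all 6 libraries was -0.32 (limma adjusted p = 0.357). That scaling was not fitted without nanoparticle library 1, so the rise of Ccl6 there was seen on the deposited scale only. Ccl6 overlaps the noncoding transcript E230016K23Rik on the other strand, which was at 11.7 to 13.4 FPKM in vehicle and 12.3 to 17.6 FPKM in nanoparticle libraries.

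**Figure D2:**
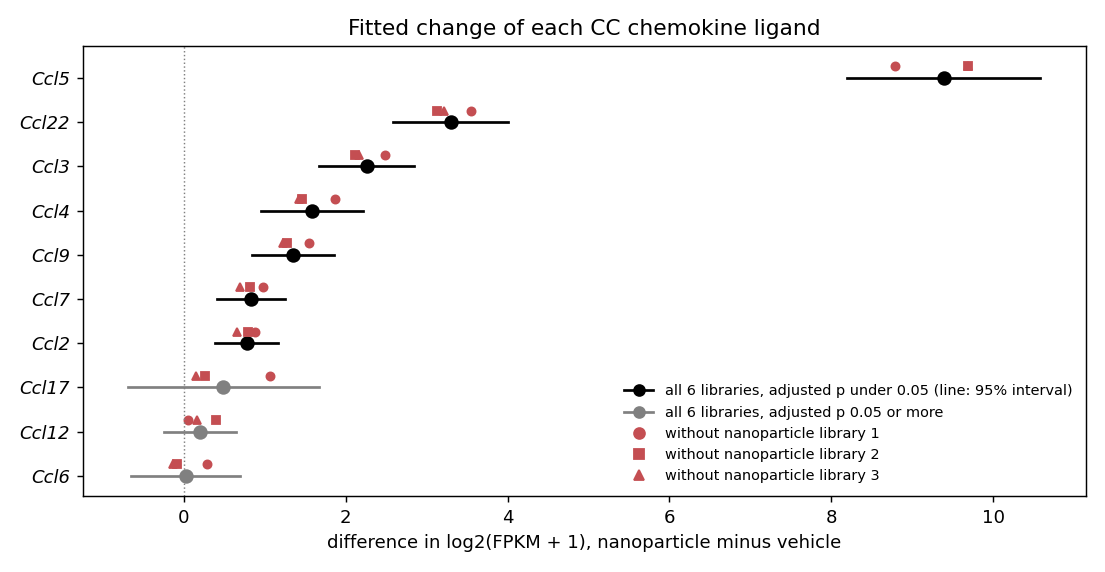
Fitted change in log2(FPKM + 1), nanoparticle minus vehicle, of each CC chemokine ligand, as a large point with its 95% interval (black where the adjusted p was under 0.05) and, in red above it, the change without nanoparticle library 1, 2 or 3. Leaving out library 1 moved Ccl17 from 0.49 to 1.06 and Ccl5 from 9.39 to 8.79.

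The promoter windows of Ccl9 and Ccl6 and of Ccl22 and Ccl17 are shown here because in each of these neighbouring pairs 1 gene passed the test over all 6 libraries and the other did not. They were taken from RefSeq on GRCm38.p6, which had entries for 6 of the ligands (Ccl3, Ccl6, Ccl9, Ccl12, Ccl17 and Ccl22) and not for Ccl2, Ccl4, Ccl5 or Ccl7. Each window is printed up to the base before the most upstream annotated start, 5′ to 3′ on the gene's strand, at chr11:83578637-83578886 (Ccl9, minus strand), chr11:83593088-83593337 (Ccl6, minus strand), chr8:94745434-94745589 (Ccl22, plus strand) and chr8:94810203-94810452 (Ccl17, plus strand). Capitals mark matches, on either strand, to the motifs named in the next paragraph.
Ccl9: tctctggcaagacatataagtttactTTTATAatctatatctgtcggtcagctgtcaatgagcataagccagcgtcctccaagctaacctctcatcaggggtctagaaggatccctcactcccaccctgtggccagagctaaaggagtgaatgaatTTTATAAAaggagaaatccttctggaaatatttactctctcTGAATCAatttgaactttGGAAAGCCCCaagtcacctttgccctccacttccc
Ccl6: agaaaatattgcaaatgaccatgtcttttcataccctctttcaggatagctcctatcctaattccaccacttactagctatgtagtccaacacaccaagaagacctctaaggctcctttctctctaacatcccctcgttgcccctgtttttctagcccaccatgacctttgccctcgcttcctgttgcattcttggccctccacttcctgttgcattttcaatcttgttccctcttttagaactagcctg
Ccl22: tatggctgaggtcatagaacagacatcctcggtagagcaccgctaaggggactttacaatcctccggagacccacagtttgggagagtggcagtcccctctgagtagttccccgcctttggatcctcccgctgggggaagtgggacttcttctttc
Ccl17: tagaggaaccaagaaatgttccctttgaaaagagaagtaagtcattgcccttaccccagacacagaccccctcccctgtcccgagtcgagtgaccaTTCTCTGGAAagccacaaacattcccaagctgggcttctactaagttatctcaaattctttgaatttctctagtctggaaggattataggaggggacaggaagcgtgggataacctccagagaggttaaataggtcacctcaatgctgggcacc

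The motifs searched in the 300-base windows, 250 bases before to 50 after the start, were the NF-kappaB consensus, the interferon-stimulated response element (GAAA, any 2 bases, GAAA), the STAT6 element (TTC, any 4 bases, GAA), the AP-1 site TGANTCA and the TATA box TATAAA, all on both strands. The Ccl9 window held an NF-kappaB match, GGAAAGCCCC at -35 from the start, an AP-1 match at -53 and TATA box letters at -94, -92 and -224, those at -94 and -92 overlapping each other. The Ccl17 window held a STAT6 match at -154, and that of Ccl12 a TATA box at -31. No match to these letters was found in the windows of Ccl3, Ccl6 and Ccl22. Over all 32851 windows, 4.51% held the NF-kappaB consensus, 3.44% the interferon element, 6.95% the STAT6 element, 7.81% the AP-1 site and 13.6% the TATA box. The windows of Ccl6 and Ccl9 shared a stretch across the start, with 58 of 74 aligned positions identical (78.4%, local alignment score 38). The other pairs of ligand windows had scores of at most 12. The Ccl6 and Ccl9 stretch ran from -59 to 15 in Ccl6 and from -18 to 49 in Ccl9. It thus lay at different distances from the 2 starts, and mostly past the start in Ccl9.

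Ratios between neighbours within a library do not depend on how libraries were scaled, and they describe how differently the paired genes moved. Ccl17 exceeded Ccl22 by 20.2, 14.5 and 14.6 times in vehicle libraries 1 to 3 and by 1.48, 2.51 and 3.28 times in nanoparticle libraries 1 to 3. The Ccl6 to Ccl9 ratio was 5.54, 5.52 and 5.42 in vehicle and 1.98, 2.32 and 2.30 with nanoparticles. Neither ratio overlapped between the groups, although Ccl17 and Ccl6 themselves did. The Ccl3 to Ccl4 ratio averaged 1.84 ± 0.162 in vehicle against 2.94 ± 0.232 with nanoparticles (SD, n = 3 each), also without overlap. The Ccl2 to Ccl7 ratio was 4.73 ± 0.360 and 4.54 ± 0.272 (SD, n = 3 each), a difference within the spread between libraries.

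**Figure D3:**
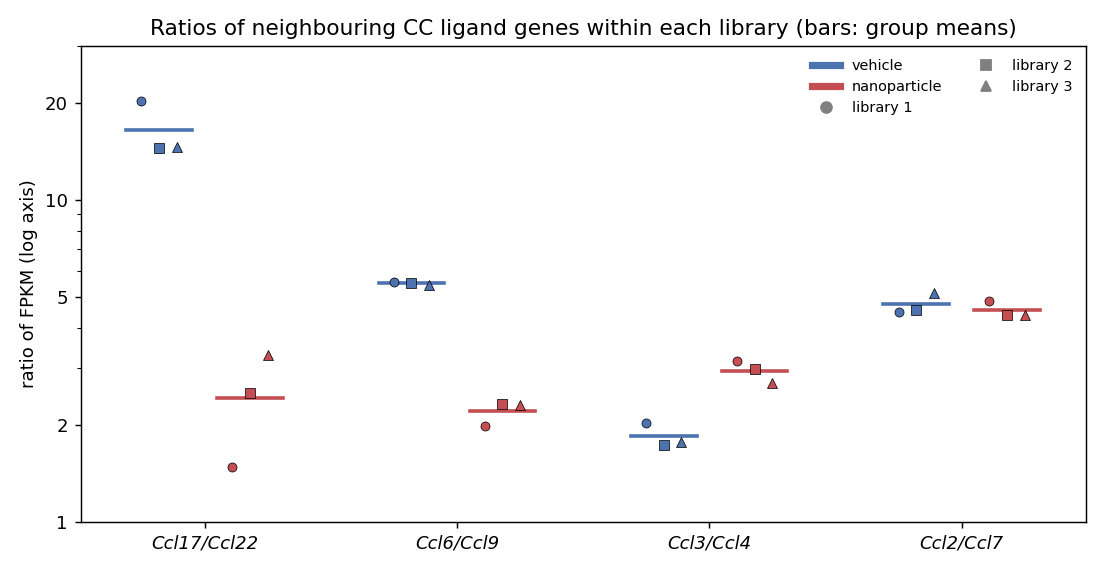
Ratio of FPKM between neighbouring CC ligand genes in each library, on a log axis, with points for libraries and bars for group means. The groups lie apart for Ccl17/Ccl22 (14.5 to 20.2 against 1.48 to 3.28) and overlap for Ccl2/Ccl7.

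The summed level of the 10 ligands was 10276, 10309 and 10184 FPKM in vehicle and 18268, 23913 and 25025 FPKM with nanoparticles, or 1.65% to 1.67% and 2.20% to 2.91% of recovered reads. Without Ccl5 the sums with nanoparticles were 12453, 22248 and 23361 FPKM, so Ccl5 carried a larger part of the sum in nanoparticle library 1 than in libraries 2 and 3. Ccl6 and Ccl17 together dominated the vehicle libraries, at 46.8% ± 1.37 and 23.8% ± 1.82 of the sum (SD, n = 3). With nanoparticles the share of Ccl6 was 22.2% ± 3.21 and that of Ccl3 was 17.4% ± 2.14, against 7.84% ± 0.603 in vehicle (SD, n = 3), without overlap in either. Ccl5 took 31.8%, 6.96% and 6.65% of the sum in nanoparticle libraries 1 to 3 and at most 0.0311% in vehicle. These shares were not tested.

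**Figure D4:**
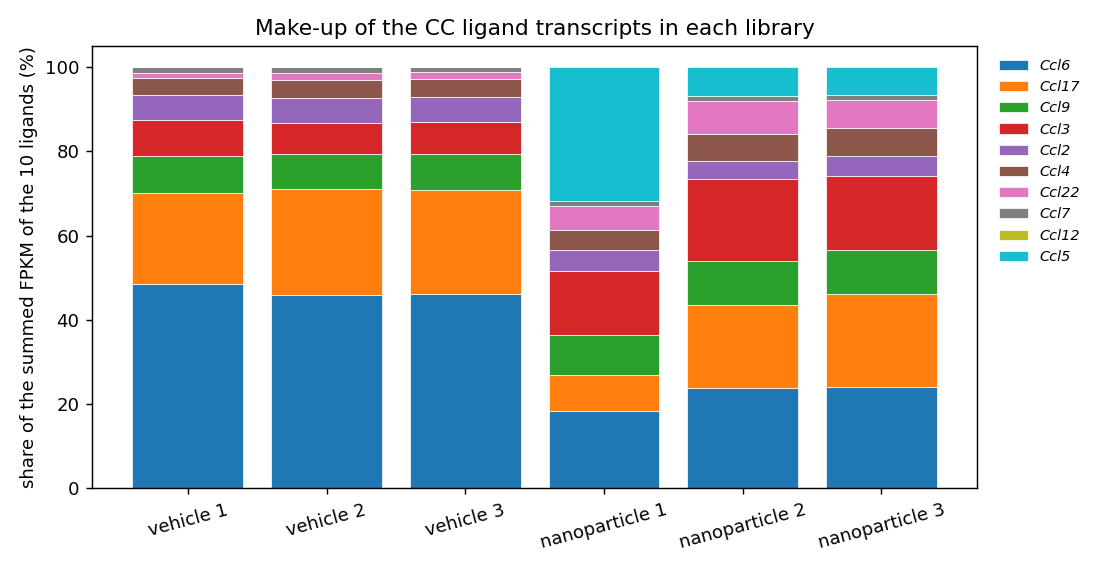
Stacked bars of the share of each ligand in the summed FPKM of the 10 CC chemokine ligands, in percent, for each library. Ccl6 (bottom) made up 46.0% to 48.4% in vehicle and 18.5% to 24.2% with nanoparticles, and Ccl5 (top) 31.8% in nanoparticle library 1.

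By mean level in vehicle the order was Ccl6, Ccl17, Ccl9, Ccl3, Ccl2, Ccl4, Ccl22, Ccl7, Ccl12 and Ccl5. The ranges of Ccl9 and Ccl3 overlapped there, as did those of Ccl22 and Ccl7, and all other neighbours in the order were separated. With nanoparticles the order was Ccl6, Ccl3, Ccl17, Ccl5, Ccl9, Ccl22, Ccl4, Ccl2, Ccl7 and Ccl12, and neighbours from Ccl6 down to Ccl2 had overlapping ranges. Among all 23398 genes, Ccl5 moved from rank 7848 in mean vehicle level to rank 20 with nanoparticles. Without nanoparticle library 1 its mean was 1665 FPKM in place of 3048, its rank 32, and it stood below Ccl9 and Ccl22 in the order. Over all 6 libraries Ccl22 moved from rank 249 to 37 and Ccl3 from 45 to 14, while Ccl2 stayed at rank 57.

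Spread within the nanoparticle group was wider than in vehicle for each of the 10 ligands. The coefficient of variation in vehicle ran from 0.715% for Ccl2 to 24.5% for Ccl22, and with nanoparticles from 15.1% for Ccl2 to 78.6% for Ccl5. Nanoparticle library 1 lay below libraries 2 and 3 for 8 of the 10 ligands, and above both for Ccl5 and Ccl12. Over all tested genes it lay below both in 46.3% and above both in 42.3%. The level of Ccl17 in library 1 was 0.306 times the mean of libraries 2 and 3, a ratio lower than in all but 3.58% of tested genes. For Ccl5 this ratio was 3.49, and 1.45% of tested genes had a higher one.

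The other CC ligands of the mouse that had values were barely expressed. Of 14 listed, 7 had values (Ccl1, Ccl8, Ccl20, Ccl24, Ccl25, Ccl27a and Ccl28), 0 passed the filter on low values, and their summed level was 1.30 to 1.85 FPKM in vehicle and 2.61 to 4.09 FPKM with nanoparticles. The remaining 7 (Ccl11, Ccl19, Ccl21a, Ccl21b, Ccl21c, Ccl26 and Ccl27b) had no entry under these symbols among the genes with deposited values. Ccl1, a ligand of Ccr8, had 13, 29 and 41 reads in vehicle and 6, 50 and 112 reads in nanoparticle libraries. Ccl8, next to Ccl12 on chromosome 11, had 0 reads in each vehicle library and 16, 4 and 1 reads in nanoparticle libraries. Ccl20, the ligand of Ccr6, had 0 reads in vehicle and 6, 1 and 5 with nanoparticles, counts at which a fold cannot be measured.

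Receptors of CC chemokines were read in the same libraries. Of 9 CC chemokine receptors considered 3 were tested, of which 1 rose (Ccr7), 1 fell (Ccr2) and 1 did not pass (Ccr1), beside 17.0% higher and 16.2% lower among all tested genes. These 3 calls did not change without nanoparticle library 1. Ccr2, the receptor of Ccl2, Ccl7 and Ccl12, was at 19.0, 21.4 and 23.5 FPKM in vehicle and 0.507, 4.31 and 4.56 FPKM with nanoparticles (change -2.65, SE 0.50, limma adjusted p = 0.00857). The change was -2.03 without nanoparticle library 1, the lowest. Every nanoparticle library lay below every vehicle library for Ccr2, and above for its ligands Ccl2 and Ccl7. Ccr1 was at 141 to 147 FPKM in vehicle and 129 to 205 FPKM with nanoparticles (change 0.13, limma adjusted p = 0.642).

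Ccr7, which binds Ccl19 and Ccl21 and guides dendritic cells to lymph nodes, rose from 1.75 to 2.62 FPKM in vehicle to 107, 124 and 105 FPKM in nanoparticle libraries 1 to 3 (change 5.11, SE 0.14, limma adjusted p = 1.84e-05). Ccr4, the receptor of Ccl17 and Ccl22, was below the filter, at 0, 0 and 0.0310 FPKM in vehicle and 1.43, 0.352 and 0.252 FPKM with nanoparticles. Among 5 scavenging and related receptors only Ccrl2, which binds chemerin without signalling, was tested. It rose from 2.11, 2.21 and 2.88 FPKM to 205, 81.1 and 67.2 FPKM (change 4.96, SE 0.41, limma adjusted p = 4.00e-04). Nanoparticle library 1 was the highest of its group for Ccrl2, as for Ccl5 and for 42.3% of all tested genes.

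**Figure D5:**
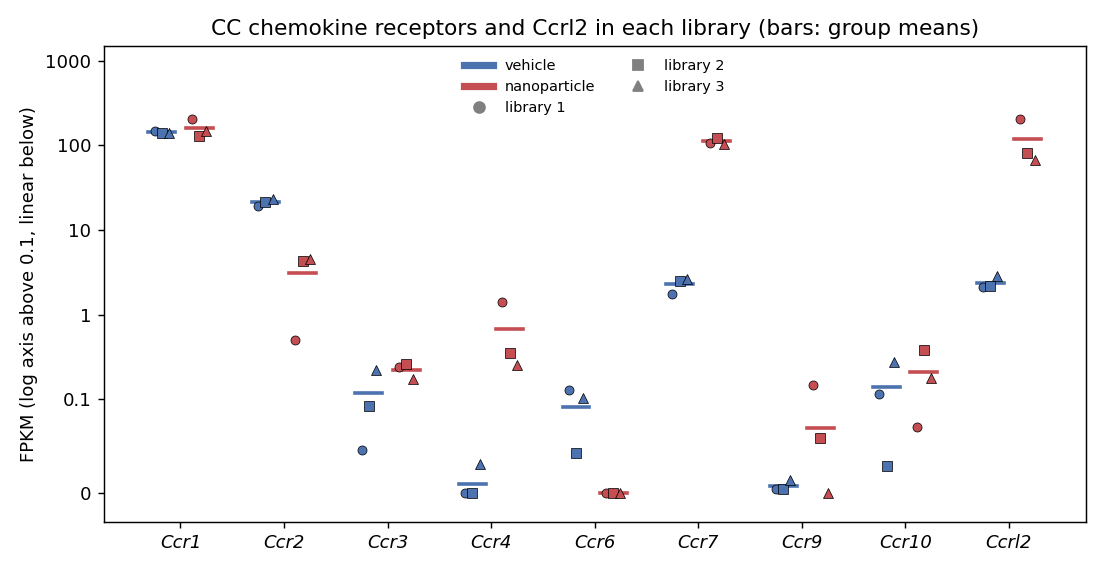
FPKM of 8 CC chemokine receptors and of Ccrl2 in each library, on an axis that is logarithmic above 0.1 and linear below, with bars at group means. Ccr2 lies lower and Ccr7 and Ccrl2 higher with nanoparticles, and Ccr3, Ccr4, Ccr6, Ccr9 and Ccr10 lie at or below 1.43 FPKM in every library.

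Of 16 transcription factors known to act on chemokine genes, all tested, 10 rose, 1 fell and 5 did not pass, with a median change of 1.29, beside 17.0% and 16.2% of all tested genes and their median of -0.0010. Without nanoparticle library 1 the counts were 11 higher, with Irf5 added, and 2 lower, with Jun added, beside 34.3% and 30.5% of all tested genes. Irf1 rose from 5.58 ± 0.0736 to 35.4 ± 2.75 FPKM (SD, n = 3 each, limma adjusted p = 3.93e-05). Irf7, a regulator of interferon genes, was at 1.88 to 2.10 FPKM in vehicle and 366, 106 and 124 FPKM in nanoparticle libraries 1 to 3 (change 5.83, SE 0.45, limma adjusted p = 3.25e-04). Library 1 was the highest of its group for Irf7, as for Ccl5 and for 42.3% of all tested genes. The NF-kappaB subunits Nfkb2 and Relb had changes of 2.70 and 2.03 (limma adjusted p = 1.35e-04 and 2.66e-04). Stat6, which acts on Ccl17 in response to interleukin 4, was at 42.8 to 44.0 FPKM in vehicle and 38.2 to 55.3 FPKM with nanoparticles, with a change of 0.07 (limma adjusted p = 0.757).

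Of 6 genes acting on the decay of chemokine mRNA, 2 rose, 1 fell and 3 did not pass, beside 17.0% and 16.2% of all tested genes. All 6 were called without nanoparticle library 1, 4 higher (with Zfp36l1 and Elavl1 added) and 2 lower (with Rc3h1 added), beside 34.3% and 30.5%. Zc3h12a, the endoribonuclease Regnase-1, had a change of 2.95 (limma adjusted p = 8.41e-05), the tristetraprolin gene Zfp36 of 0.78 (limma adjusted p = 0.0185) and Zfp36l2 of -0.91 (limma adjusted p = 0.00107). The Zfp36 call was lost when any vehicle library was left out (limma adjusted p = 0.0640 to 0.0798) and with both other scalings (0.105 and 0.293). Of 8 proteases that trim chemokines 5 were tested, of which 2 rose, 1 fell and 2 did not pass, beside the same 17.0% and 16.2%. Mmp9 and Mmp12 were also called higher without nanoparticle library 1, for 4 higher and 1 lower. Mmp14 and Mmp2 had changes of 1.83 and 1.44 (limma adjusted p = 1.86e-04 and 6.69e-04), and Mmp8 of -0.90 (limma adjusted p = 0.00170).

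Markers of other cells that could make these ligands were read in the same libraries. T and natural killer cell markers, whose cells release Ccl5, were at or near 0, with 6 of 7 having a value and a sum of 0.120 to 0.284 FPKM in vehicle and 0.0398 to 0.580 FPKM with nanoparticles. B cell markers summed to at most 0.394 FPKM in any library. Stromal markers summed to 0.0262 to 0.111 FPKM in vehicle and 0.834 to 1.31 FPKM with nanoparticles, nearly all of it from Pdgfrb, a receptor of pericytes and fibroblasts, with 0, 6 and 3 reads in vehicle and 115, 93 and 88 reads with nanoparticles. Col1a1 and Col1a2, the collagen genes that define fibroblasts, were at 0 in vehicle and at most 0.00933 FPKM with nanoparticles.

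Among all tested genes 17.0% rose and 16.2% fell, the background for the marker counts that follow. The 8 monocyte and macrophage markers, all tested (4 rose, 1 fell), summed to 14663 to 15878 FPKM in vehicle and to 12339, 16587 and 18015 FPKM in nanoparticle libraries 1 to 3. Of the 8 dendritic cell markers 7 were tested (0 rose, 4 fell), and their sum was 5368 to 5775 FPKM in vehicle and 3019, 6260 and 6820 FPKM in nanoparticle libraries 1 to 3. Without nanoparticle library 1 the counts were 5 higher and 2 lower for the monocyte and macrophage markers and 1 higher and 5 lower for the dendritic cell markers, beside 34.3% and 30.5% of all tested genes. On the deposited scale both sums were below the vehicle range in nanoparticle library 1 and above it in libraries 2 and 3, like Ccl6 and Ccl17. The sums were carried by Lyz2 and by Cd74 with H2-Ab1, and other markers had other patterns. Lyz2 had 372992 to 406480 reads in vehicle and 341976 and 434247 in nanoparticle libraries 2 and 3. Recovered totals of nanoparticle libraries 2 and 3 were 18453938 and 21976655 reads, above the vehicle totals. The sums were not compared with scaling by total reads. Adgre1, the macrophage antigen F4/80, was at 62.9 to 68.3 FPKM in vehicle and 276, 141 and 132 FPKM with nanoparticles, and Cd14 and Fcgr1 were likewise above vehicle in all 3 libraries and highest in library 1. Itgax, Zbtb46, Ciita and Kmo were below the vehicle range in all 3 nanoparticle libraries. Of these, Itgax did not pass the test over all 6 libraries (limma adjusted p = 0.163). The part of these markers in the results of Ccl6 and Ccl17 was not tested. Flt3 was near 0, at up to 0.0793 FPKM. Cd209a was among the dendritic cell markers that fell, at 5.17 to 6.21 FPKM in vehicle and at 0, 0.0763 and 0 with nanoparticles (limma adjusted p = 3.73e-05).

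Of the 8 neutrophil markers 2 were tested (1 rose), with a sum of 34.7 to 39.0 FPKM in vehicle and 50.8 to 125 FPKM with nanoparticles. Below the filter, Elane and Mpo were at 0 in vehicle, and Ly6g and Ltf at up to 0.192 and 0.315 FPKM in any library. Ngp and Camp, also below it, were higher in nanoparticle libraries 2 and 3. Ngp had 6, 11 and 23 reads in vehicle and 1, 87 and 76 with nanoparticles. Camp had 1, 0 and 3 reads in vehicle and 3, 23 and 29 with nanoparticles. Both tested neutrophil markers, S100a8 and S100a9, were called higher without nanoparticle library 1, beside 34.3% of all tested genes. In that library S100a9 lay below vehicle, at 0.352 FPKM against 0.962 to 1.65 FPKM, while S100a8 lay above vehicle. Mast cell and basophil markers summed to at most 4.55 FPKM in vehicle and 3.50 FPKM with nanoparticles. Of the 2 tested, Gata2, a transcription factor of mast cells and progenitors, fell from 2.88 ± 0.440 to 1.31 ± 0.455 FPKM (SD, n = 3 each, limma adjusted p = 0.0190). Eosinophil markers summed to 13.1 to 14.3 FPKM in vehicle and 8.15 to 13.7 FPKM with nanoparticles. Of the 2 tested, Siglecf, an eosinophil surface lectin, fell from 8.83 ± 0.795 to 3.32 ± 1.20 FPKM (SD, n = 3 each, limma adjusted p = 0.00786). Ear6, the other, had means of 4.76 FPKM in vehicle and 6.47 FPKM with nanoparticles and did not pass (limma adjusted p = 0.134). Prg2 and Epx were below the filter and higher in nanoparticle libraries 2 and 3. Prg2 had 0, 1 and 3 reads in vehicle and 0, 39 and 25 with nanoparticles. Epx had 0 reads in each vehicle library and 0, 17 and 5 with nanoparticles.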

How the data were processed

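The 6 libraries (3 vehicle, 3 nanoparticle, grouped by sample titles) were each made from 1 µg of total RNA, per the labels' protocols. The submitters' processing notes name CASAVA, STAR 2.5, HTSeq, edgeR 3.16.5 and DESeq2 and the builds mm10 and hg19, with no roles. The authors deposited 2 tables of values that are identical for all 140388 entries. Their unit, FPKM, was inferred: multiplied by GENCODE M21 merged exon lengths and 1 scale per library, 95.8% to 96.1% of the deposited values above 0 were whole reads within 0.01, and those of all 10 ligands were. For 521 genes over 200 reads where this failed, a fitting length was searched for, which gave the read totals. Values that were still not whole were rounded, and genes with no annotated length counted as 0. Such totals therefore carry the error of this recovery besides counting error.

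Values were taken as log2(FPKM + 1), which understates changes of low genes, and fitted with limma 3.58.1 in R 4.3.3 (group as single term, eBayes with trend, Benjamini-Hochberg over all genes kept). The fit was tested on simulated data with the same spread in both groups, so the wider spread of the nanoparticle libraries was not covered. The other scripts ran in Python 3.11.15, and promoter windows were aligned with biopython 1.88. The 10 ligands and all gene lists were chosen with earlier results of these data known. All ligands are named. 2 further pathway genes were left out of the lists and are not reported here. From each pathway list the text names the 4 genes with the smallest adjusted p among those past the threshold with at least 5 FPKM in the higher group, and other genes named (Ccr1, Ccr4, Stat6, Ccl1, Ccl8, Ccl20, the genes whose call changed without nanoparticle library 1 and the marker genes) were added after their values were seen. Alternatives covered the pseudocount, filters, scalings, moderation, a replicate block and leaving out each library. Near-identical gene copies may share reads in ways not given in the sources used here.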

Additional observations from a re-analysis of the deposited data

How the results depend on the processing

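Over 14 alternatives, the last of them chosen after seeing the data (scaling by total recovered reads), 129 of 140 ligand results stayed on the same side of the threshold, 9 lost the call (Ccl2 in 7 and Ccl7 in 2) and 2 gained it (Ccl6 and Ccl17, without nanoparticle library 1). None of the called ligands changed direction under these alternatives. The number of ligands that rose was 5 to 9 over the fits leaving out 1 library, and 6 with the replicate block. For all genes, leaving out 1 library gave 2141 to 6923 genes that differed in place of 3550, 1114 to 3660 higher in place of 1817 and 1027 to 3263 lower in place of 1733. The highest counts came without nanoparticle library 1 and the lowest without vehicle library 3; the causes were not tested. Scaling to an equal sum of FPKM gave 881 higher and 4306 lower, and by total reads 1107 higher and 3613 lower. These scalings themselves moved the median change of all genes to -0.38 and -0.28.

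Deviations of same-numbered libraries had correlations over genes of 0.0654, 0.113 and -0.0577. Nanoparticle libraries 1 and 2 correlated best with the vehicle library of their own number, and nanoparticle library 3 with vehicle library 2 (0.108). All correlations between the groups were small, at -0.129 to 0.113, so the numbers were not taken as pairs. With the replicate block 2785 genes differed, 1451 higher and 1334 lower, and Ccl2 lost its call (limma adjusted p = 0.0548), the other ligand calls being kept. Depth limits Ccl12 and the vehicle values of Ccl5, which rest on 49 to 109 reads.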
